A study of Mus musculus with 6 samples.

Results

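The genes described here encode enzymes that add, remove or bind acetyl groups on histones and methyl groups on DNA. There were 35 of them, given by name, and all 35 were found among the 22894 genes of the deposited tables. Transcripts without a symbol were counted there as genes of their own. The cells were C3H-10T1/2, a mouse mesenchymal line that can form fat cells in culture, and every library was taken on day 6 of brown adipocyte differentiation. The DMSO group (n = 3) received the solvent, and the 611 group (n = 3) received 4 uM of 611, also named Cpd A, which inhibits LSD1, a histone demethylase. Both groups shared the induction medium for 72 h (10% serum with 1 uM rosiglitazone, 1 nM T3, 20 nM insulin, 1 uM dexamethasone, 125 uM indomethacin and 0.5 mM isobutylmethylxanthine) and afterwards a medium that kept only the serum, rosiglitazone, T3 and insulin. The labels place the start of treatment either at seeding or 12 h after it, with induction 48 h later. The libraries are biological triplicates per the series' design text, all of 1 established cell line, so p-values measure the spread between these cultures. The design asks which genes respond to LSD1 inhibition while brown adipocytes form, and the comparison here asks it of the acetylation and DNA methylation machinery.

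Histone acetyltransferases place acetyl groups on lysines of histone tails. Zinc-dependent deacetylases (HDACs) and NAD-dependent sirtuins remove them, and bromodomain proteins such as Brd2 bind them. LSD1 itself works beside Hdac1 and Hdac2 in the CoREST complex. DNA methylation is copied onto newly made strands by Dnmt1, which Uhrf1 recruits, is set on unmethylated DNA by Dnmt3a and Dnmt3b, is oxidised by the TET enzymes and is read by methyl-CpG binding proteins such as Mbd2. In fat tissue, Hdac3 is known to support thermogenic genes of brown fat, Hdac11 to restrain them, and Sirt3 is a mitochondrial deacetylase abundant in brown fat.

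Library totals, worked out from the steps between low values, ran from 3.88e+07 to 4.12e+07. The defining markers fixed for the check of cell identity were mixed. The 7 fat cell markers were high in every library, with summed levels of 27600 to 28900 RPKM (reads per kilobase of transcript, scaled to the library total) in DMSO and 14200 to 15800 in 611, and all 7 fell. Of the 6 brown fat markers, Ucp1 was listed at 0 in all 6 libraries, and 3 of the 4 tested fell (Cidea, Cox8b and Prdm16). Fibroblast or progenitor markers summed to 668 to 731 RPKM in DMSO and 1430 to 1570 in 611, where all but Dlk1 rose. Among markers of other cell types, Myod1, Myog, Ckm, Acan and Ptprc were listed at 0 in all libraries, while others moved both ways. The muscle gene Tnni1, the cartilage genes Col2a1, Sox9 and Comp and the bone gene Runx2 rose, and the muscle gene Acta1 and the bone gene Alpl fell. In bulk RNA, fewer cells of a type and less RNA per cell cannot be told apart. Kdm1a, which encodes LSD1, stood at 9.09 ± 0.331 RPKM (SD, n = 3) in DMSO and 11.3 ± 0.331 in 611. The inhibitor acts on the protein, so this level is no check of the treatment.

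The largest responses among the 35 genes were rises of Uhrf1, Dnmt1, Hdac7 and Hdac11, and Tet1 apart, the remaining calls were changes of less than 1.5-fold. Members of 1 family often moved in opposite directions. Of the 34 genes tested, 15 were higher with 611 (44.1%) and 5 lower (14.7%), against 41.7% higher and 17.7% lower of all 13795 genes tested (limma, Benjamini-Hochberg adjusted p below 0.05, values as deposited). The counts of calls were therefore close to the background of all genes. The median log2 fold change was 0.149 for the 34 genes and 0.104 for all genes. Because the median of all genes lay above 0, libraries were also rescaled by median-of-ratios factors, which moved that median by -0.106 to -0.002. On that scale 9 members were higher (26.5%) and 7 lower (20.6%), against 28.6% higher and 28.6% lower of all genes, and the members' median was 0.029. Log2 fold changes were computed from log2(RPKM + 1), which shrinks them for weakly expressed genes. Ratios of mean RPKM are given as folds.

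Calls were read under 3 settings: as deposited, after the rescaling, and after removal of a trend with transcript length, GC content and level that was chosen after seeing the data. The trend removal called 9 members higher and 9 lower, against 26.2% higher and 31.6% lower of the 13352 genes with a length and GC value. A total of 12 genes kept their call under all 3 settings, with no such count over all genes to set beside it. Higher were Hdac2, Hdac7, Hdac11, Sirt2, Dnmt1, Uhrf1 and Mbd2. Lower were Hdac5, Sirt3, Dnmt3a, Tet3 and Brd2. By ratio of means, 3 members reached 2-fold, and Uhrf1 alone passed 1 on the log2 scale, while 4.23% of all genes tested did so with a call.

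**Figure D1:**
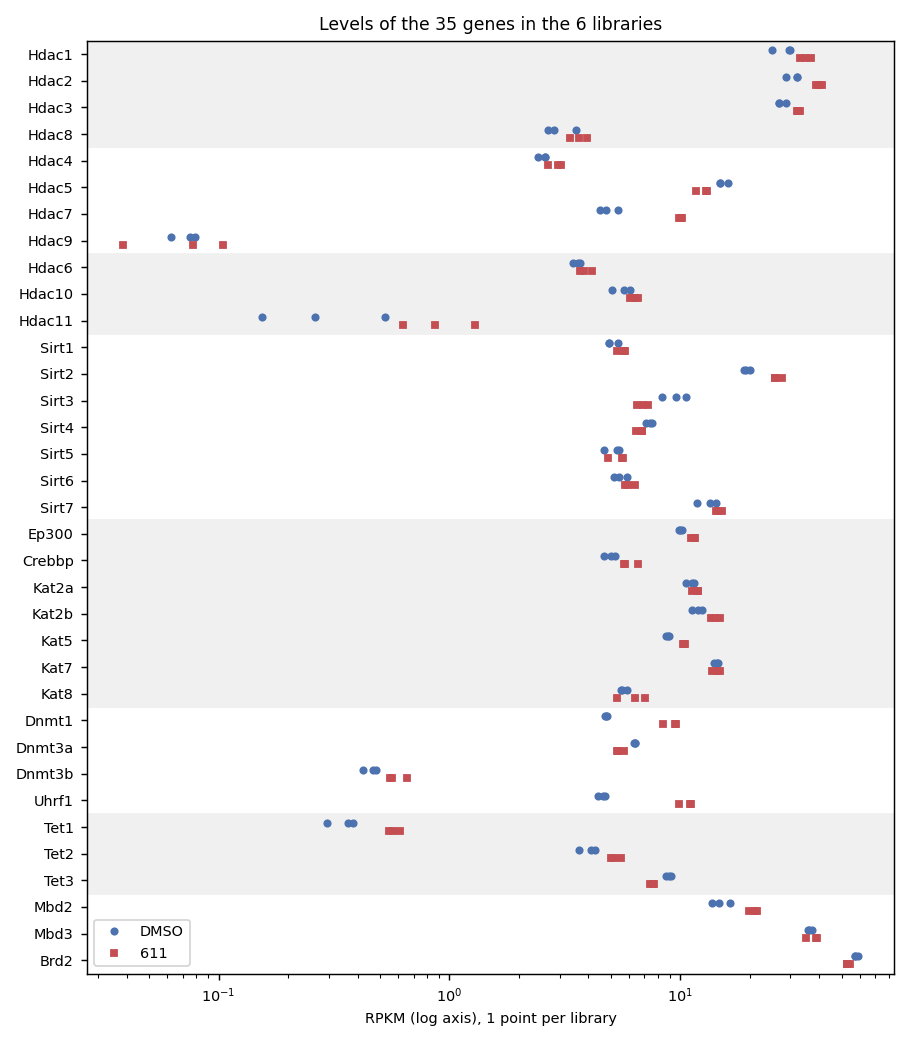
RPKM of each of the 35 genes on a log axis, with 1 point per library (circles DMSO, squares 611, n = 3 each) and shading by family. Brd2 and Mbd3 stood highest at 55.6 and 36.9 RPKM in the mean of all libraries, and Hdac9 lowest at 0.0730.

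**Figure D2:**
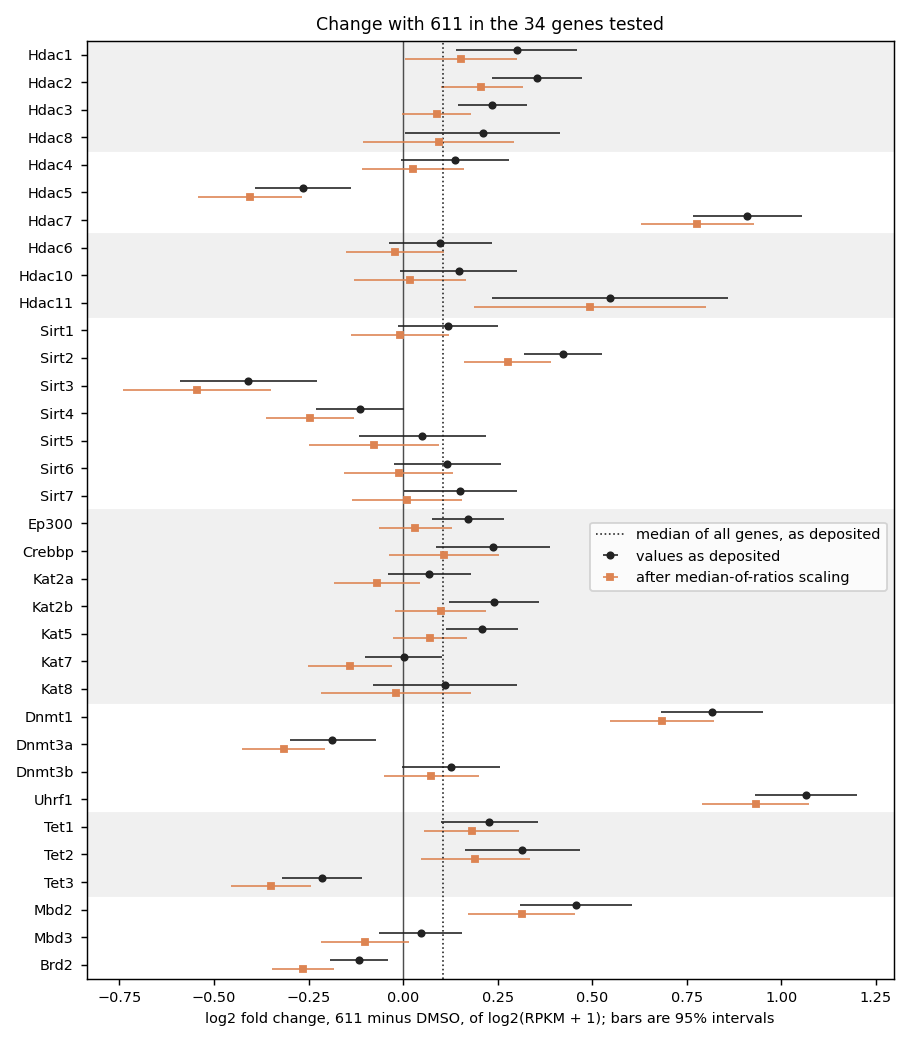
Log2 fold change of the 34 genes tested, 611 minus DMSO, with 95% intervals, as deposited (circles) and after median-of-ratios scaling (squares), and a dotted line at the median of all genes as deposited (0.104). Uhrf1, Hdac7 and Dnmt1 lie farthest to the right and Sirt3 farthest to the left on both scales. Kat7, Mbd3 and 6 other genes that did not pass as deposited cross 0 to the left with the scaling.

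The maintenance arm of DNA methylation rose and Dnmt3a, a de novo enzyme, fell. Uhrf1, the protein that reads hemimethylated DNA behind the replication fork and recruits Dnmt1, stood at 4.71, 4.40 and 4.65 RPKM in DMSO and at 11.1, 9.88 and 11.1 in 611. The groups were far apart, and the mean went from 4.58 ± 0.161 to 10.7 ± 0.709, 2.33-fold higher (log2 fold change 1.07 ± 0.06 SE, limma adjusted p = 1.8e-06). Dnmt1, the maintenance methyltransferase, read 4.80, 4.73 and 4.75 RPKM in DMSO against 9.46, 8.41 and 9.60 in 611. It rose 1.92-fold with no overlap (log2 fold change 0.82 ± 0.06 SE, limma adjusted p = 6.4e-06). After rescaling the 2 changes were 0.93 and 0.68 on the log2 scale, with limma adjusted p-values of 5.2e-06 and 2.1e-05.

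Dnmt3a, which sets methylation on unmethylated DNA, gave 6.38, 6.39 and 6.32 RPKM in DMSO and 5.33, 5.40 and 5.69 in 611. Every 611 library was below every DMSO library, a 1.16-fold fall (log2 fold change -0.19 ± 0.05 SE, limma adjusted p = 0.0107, and -0.32 with adjusted p = 5.6e-04 after rescaling). Dnmt3b, the other de novo enzyme, was near the bottom of the range at 0.458 ± 0.0306 RPKM in DMSO and 0.592 ± 0.0562 in 611. Its 67 to 110 reads per library did not overlap between groups, yet it missed the threshold (limma adjusted p = 0.0853, 95% interval of the log2 fold change -0.003 to 0.255). It passed without a filter on low values (limma adjusted p = 0.0329) and without the mean trend in limma (adjusted p = 0.049). Within each library the ratio of Dnmt1 to Dnmt3a went from 0.752, 0.740 and 0.752 in DMSO to 1.77, 1.56 and 1.69 in 611, so the more abundant of the 2 transcripts per length switched from Dnmt3a to Dnmt1.

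The rise of Uhrf1 and Dnmt1 went with that of genes for DNA replication. Of 20 S phase and proliferation genes, all tested, 19 were higher and 0 lower with 611, against 41.7% and 17.7% of all genes. Ccne1 was the 1 that did not pass. After rescaling 17 were higher, against 28.6% of all genes. The median log2 fold change as deposited was 0.892 against 0.104 for all genes. The summed level of the 20 genes was 179 to 190 RPKM in DMSO and 348 to 385 in 611. Top2a, which untangles replicated DNA, rose 2.51-fold, the helicase subunit Mcm3 2.60-fold, and the proliferation marker Mki67 2.49-fold. The part of proliferation in the rise of Uhrf1 and Dnmt1 was not tested.

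Promoter sequence is shown for these genes because E2F factors, which drive S phase genes, bind words of the kind searched here. The 250 bases before each RefSeq start site (GRCm38.p6) were searched on both strands for TTTCCCGC, TTTGGCGC, TTTCGCGC and TTTGCCGC, a choice made after the expression values were seen. Of the 31 member genes with a window, 4 held a word (12.9%), against 2.16% of 27025 genes. So did 4 of the 16 S phase genes with a window. By window, 4 of the 47 member windows held a word, against 1.86% of all 32851 windows. A gene with several windows had more sequence searched. Member windows were also richer in CpG, with a median of 15 CpG per window against 6 over all windows. The 4 genes were Uhrf1, Dnmt1, Kat2a and Sirt4. As deposited, Uhrf1 and Dnmt1 rose and Kat2a and Sirt4 did not pass, so a word was found both in genes that passed the test and in genes that did not. Capitals mark the word. The Uhrf1 window is chr17:56304063-56304312 on the plus strand, directly upstream of the transcript measured, with the word 185 to 178 bases before the start.
Uhrf1: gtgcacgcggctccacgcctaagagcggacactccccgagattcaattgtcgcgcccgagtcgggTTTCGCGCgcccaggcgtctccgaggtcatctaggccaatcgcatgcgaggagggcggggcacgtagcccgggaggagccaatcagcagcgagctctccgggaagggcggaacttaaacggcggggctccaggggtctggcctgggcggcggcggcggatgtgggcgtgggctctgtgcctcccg
The 3 other stretches lie on the minus strand, at chr9:20952824-20952853 for Dnmt1, chr11:100712508-100712537 for Kat2a and chr5:115484298-115484327 for Sirt4, printed in the direction of the gene. In Dnmt1 and Kat2a the word is on the opposite strand and reads as its reverse complement.
Dnmt1: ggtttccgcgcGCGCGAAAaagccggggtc
Kat2a: aaggatgggaaGCGGCAAAggaagactacg
Sirt4: gtgttctgatccggctgaaggTTTCCCGCt
The Dnmt1 and Sirt4 windows belong to RefSeq start sites 7265 and 428 bases from those of the transcripts measured, and 166 and 216 of their 250 bases are exonic. Isoforms share reads, so which start was used cannot be told from these values. A match describes letters in the window and is no evidence of binding.

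Other genes that read, copy or demethylate methylated DNA moved in both directions. Of 17 on the list 15 were tested, with 7 higher (46.7%) and 2 lower (13.3%), near the 41.7% and 17.7% of all genes, and a median log2 fold change of 0.134. The counts were 5 and 3 after rescaling and 5 and 5 after trend removal. Hells, a remodeller needed for DNA methylation of repeats, rose 2.02-fold from 2.24 ± 0.423 to 4.53 ± 0.243 RPKM. Zbtb4, a zinc finger reader of methyl-CpG, rose 1.44-fold. Gadd45g, a stress gene linked to demethylation, fell 1.29-fold from 68.0 ± 4.09 to 52.7 ± 4.20 RPKM, and Mbd6 fell 1.16-fold. Of the 11 germline genes known to be silenced by promoter methylation, 7 did not reach the filter, and Mael, Asz1, Tex101 and Tdrd1 were listed at 0 in all libraries. Among the 4 tested, 1 was higher and 1 lower. The higher one, Ddx4, named after its values were seen, went from 0.0854 ± 0.0113 to 0.314 ± 0.0391 RPKM. The synaptonemal complex gene Sycp3, at 24.1 ± 1.79 RPKM in DMSO, was far from silent and fell 1.40-fold to 17.1 ± 1.26.

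The TET dioxygenases, which oxidise methylcytosine, split. Tet2, the TET family member without a CXXC domain, was at 3.66, 4.11 and 4.29 RPKM in DMSO and 4.998, 5.19 and 5.53 in 611, all higher (1.30-fold, limma adjusted p = 0.00332). Tet1 was at 0.294, 0.363 and 0.382 RPKM in DMSO and 0.550, 0.613 and 0.568 in 611, also without overlap (1.66-fold, limma adjusted p = 0.00727). Both kept their call after rescaling and lost it after the trend removal (limma adjusted p = 0.503 for Tet2 and 0.204 for Tet1). Their transcripts are long, 9179 and 13986 bases, with a GC content of 45.4% and 43.6%.

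Tet3, the most abundant of the family, fell from 8.66, 9.14 and 8.99 RPKM in DMSO to 7.62, 7.68 and 7.37 in 611 (1.18-fold lower, limma adjusted p = 0.00383, and 2.2e-04 after rescaling). All 3 libraries of 611 were below those of DMSO. The sum of the 3 TET genes as deposited was 13.3 ± 0.591 RPKM in DMSO and 13.4 ± 0.179 in 611, with overlapping groups, while the ratio of Tet2 to Tet3 within a library went from 0.423 to 0.477 in DMSO up to 0.656 to 0.750 in 611.

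Mbd2, the methyl-CpG binding subunit of a NuRD deacetylase complex, rose and its paralogue Mbd3 missed the threshold. Mbd2 read 13.7, 14.7 and 16.4 RPKM in DMSO and 19.9, 21.2 and 21.4 in 611, with a clear gap between groups (1.39-fold, log2 fold change 0.46 ± 0.07 SE, limma adjusted p = 3.3e-04, and 0.00248 after rescaling). Mbd3, the subunit of the alternative NuRD complex that hardly binds methylated DNA in mammals, was at 36.3 ± 0.762 and 37.6 ± 2.29 RPKM (limma adjusted p = 0.441, 95% interval of the log2 fold change -0.064 to 0.156). The ratio of Mbd2 to Mbd3 within a library was 0.379 to 0.460 in DMSO and 0.510 to 0.614 in 611.

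Class I deacetylases, the nuclear enzymes of the corepressor complexes, were higher as deposited in 3 of 4 cases, of which 1, Hdac2, kept the call after rescaling. After trend removal all 3 were higher (limma adjusted p = 0.0124 for Hdac1, 5.9e-04 for Hdac2 and 0.00363 for Hdac3). Of all genes, 41.7% were higher as deposited, 28.6% after rescaling and 26.2% after trend removal. The 1 of 4 after rescaling was therefore not above the share of all genes. Whether class I differed from all genes was not tested. Hdac2 was at 28.6, 32.2 and 32.2 RPKM in DMSO and 38.6, 39.9 and 41.1 in 611, with no overlap (1.29-fold, limma adjusted p = 4.1e-04, and 0.00541 after rescaling). Hdac1, its close paralogue and usual partner, went from 28.2 ± 2.68 to 34.8 ± 1.90 RPKM (1.24-fold, limma adjusted p = 0.00544), but the call ended with rescaling (adjusted p = 0.0715). Hdac3, the catalytic subunit of the NCoR complexes, went from 27.5 ± 1.07 to 32.5 ± 0.515 RPKM (1.18-fold, limma adjusted p = 9.5e-04), and its call ended likewise (adjusted p = 0.0877). Hdac8, the class I enzyme that deacetylates cohesin, was the scarcest of them at 3.02 ± 0.443 and 3.64 ± 0.316 RPKM and overlapped between groups (limma adjusted p = 0.0711, and 0.0141 with the replicate number as a block). The ratio of Hdac1 to Hdac2 in a library was 0.908 ± 0.0286 in DMSO and 0.874 ± 0.0407 in 611 and overlapped. Summed over the 4 genes, class I made up 89.6 of the 122 RPKM of all 11 HDACs in DMSO and 111 of 148 in 611.

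Subunits of the corepressor complexes that hold class I enzymes were higher in 12 of 20 cases (60.0%) and lower in 2 (10.0%), against 41.7% and 17.7% of all genes. Their median log2 fold change of 0.129 was close to the 0.104 of all genes, and after rescaling 7 of 20 were higher and 4 lower, against 28.6% each of all genes, with a median of -0.012. Chd3, a remodeller of the NuRD complex, rose 1.65-fold from 8.94 ± 0.844 to 14.7 ± 1.25 RPKM. Ncor1, the nuclear receptor corepressor, fell 1.09-fold from 29.7 ± 0.558 to 27.2 ± 0.595 RPKM. Sap30 of the Sin3 complex rose 1.79-fold to 2.18 ± 0.0993 RPKM (limma adjusted p = 0.0535 after trend removal), and Suds3 of the same complex fell 1.09-fold to 17.3 ± 0.684.

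Class IIa deacetylases, which shuttle between nucleus and cytoplasm and bind MEF2 factors, moved in both directions. Hdac7 was at 5.39, 4.79 and 4.49 RPKM in DMSO and 9.84, 10.2 and 10.1 in 611. It rose 2.05-fold with a wide gap between groups (log2 fold change 0.91 ± 0.06 SE, limma adjusted p = 5.5e-06, and 0.78 with adjusted p = 1.7e-05 after rescaling). Hdac5 moved the other way, from 16.1, 14.8 and 14.9 RPKM in DMSO to 13.0, 13.0 and 11.7 in 611. Every 611 library was lower (1.22-fold, log2 fold change -0.26 ± 0.06 SE, limma adjusted p = 0.00324, and -0.41 with adjusted p = 4.8e-04 after rescaling). The ratio of Hdac7 to Hdac5 within a library therefore went from between 0.301 and 0.335 in DMSO to between 0.756 and 0.865 in 611, with Hdac5 still the more abundant per length.

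Hdac4, the third class IIa enzyme, was at 2.54 ± 0.103 RPKM in DMSO and 2.89 ± 0.188 in 611. All 3 libraries of 611 were above DMSO, but the difference missed the threshold (limma adjusted p = 0.0873, and 0.0496 without 611 replicate 1), and after trend removal the gene was lower (log2 fold change -0.177, adjusted p = 0.0357). Hdac9 had 7 to 19 reads per library, a level of 0.0725 ± 0.00882 RPKM in DMSO and 0.0734 ± 0.0329 in 611, and stayed under the filter of 0.1 RPKM in 3 libraries. It was the only member not tested. Of the 11 MEF2 factors and 14-3-3 proteins, the latter of which hold class IIa enzymes in the cytoplasm, 4 were higher (36.4%) and 2 lower (18.2%), near the 41.7% and 17.7% of all genes, with a median log2 fold change of 0.047. After rescaling 2 were higher and 3 lower. The 14-3-3 gene Ywhah rose 1.56-fold from 31.99 ± 1.84 to 50.1 ± 0.476 RPKM, Ywhaq 1.26-fold and Ywhaz 1.18-fold, and the fourth, Ywhae, named after its values were seen, 1.13-fold. The last 2 did not pass after rescaling (limma adjusted p = 0.0857 and 0.569). Ywhag fell 1.31-fold from 197 ± 3.85 to 151 ± 6.11 RPKM and Ywhab 1.19-fold. None of the 4 MEF2 genes passed as deposited, and Mef2d was lower after rescaling (limma adjusted p = 0.0351).

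Hdac11, the only class IV enzyme, was scarce and rose. Its levels were 0.155, 0.525 and 0.262 RPKM in DMSO and 0.629, 1.28 and 0.863 in 611, from 16, 55 and 28 reads against 68, 140 and 94. The highest DMSO library lay just under the lowest 611 library, and the spread within groups was the widest of the genes with a call (2.95-fold, log2 fold change 0.55 ± 0.14 SE, limma adjusted p = 0.00774, and 0.0125 after rescaling). Of its exonic bases 26.0% overlap other annotated genes, and 22.4% overlap a single gene on the opposite strand, and no source used here says whether the values used strand. The class IIb enzymes, which act largely outside the nucleus, missed the threshold. Hdac6, the tubulin deacetylase, was at 3.57 ± 0.126 and 3.89 ± 0.225 RPKM without overlap (limma adjusted p = 0.188, 95% interval of the log2 fold change -0.038 to 0.234, and -0.183 with adjusted p = 0.0261 after trend removal). Hdac10, a polyamine deacetylase, was at 5.61 ± 0.518 and 6.31 ± 0.244 with overlap (limma adjusted p = 0.092, and 0.0437 without DMSO replicate 2).

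Among the 7 sirtuins, Sirt2 rose and Sirt3 fell. Sirt2, a mainly cytoplasmic deacetylase, gave 20.1, 19.2 and 19.0 RPKM in DMSO and 27.7, 25.8 and 25.6 in 611, well apart (1.36-fold, log2 fold change 0.42 ± 0.05 SE, limma adjusted p = 6.0e-05, and 0.00152 after rescaling). Sirt3, the main deacetylase of mitochondria, gave 10.6, 8.36 and 9.56 RPKM in DMSO and 7.25, 6.88 and 6.50 in 611. Its DMSO libraries were more spread but all above 611 (1.38-fold lower, log2 fold change -0.41 ± 0.08 SE, limma adjusted p = 0.00201, and 6.6e-04 after rescaling). Of the exonic bases of Sirt3 29.2% overlap Ric8a on the opposite strand. Ric8a was at 7.79 ± 0.260 RPKM in DMSO and 8.53 ± 0.283 in 611 (limma adjusted p = 0.0716). The fall of the fat cell markers went with that of Sirt3, and its part in the result was not tested.

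The 2 other mitochondrial sirtuins did not pass as deposited. Sirt4 was at 7.33 ± 0.224 RPKM in DMSO and 6.70 ± 0.254 in 611, lower without overlap (limma adjusted p = 0.0844), and it passed after rescaling (log2 fold change -0.247, adjusted p = 0.00314). Sirt5, a desuccinylase, was at 5.15 ± 0.408 and 5.37 ± 0.437 and overlapped (limma adjusted p = 0.575, 95% interval -0.117 to 0.219). The nuclear sirtuins Sirt1, Sirt6 and Sirt7 had log2 fold changes of 0.119, 0.117 and 0.151 and limma adjusted p-values of 0.106, 0.136 and 0.0765. Sirt1, which deacetylates the coactivator PGC-1alpha, was at 5.09 ± 0.265 and 5.62 ± 0.239 RPKM, and Sirt6, a chromatin deacetylase, at 5.49 ± 0.359 and 6.04 ± 0.320. The nucleolar Sirt7 went from 13.2 ± 1.25 to 14.7 ± 0.473 RPKM, and it passed without DMSO replicate 2, its highest solvent library (adjusted p = 0.0266).

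Genes on a list drawn up for acetyl-CoA, NAD and methyl donor supply were mostly lower. Not all of them are suppliers, as the list also held the isocitrate dehydrogenase genes Idh1, Idh2 and Idh3a and the NAD kinase gene Nadk. Of 16 on the list, 14 were tested, 3 higher and 9 lower, with a median log2 fold change of -0.240 against 0.104 for all genes (2 higher and 10 lower after rescaling). As shares, 21.4% were higher and 64.3% lower, against 41.7% and 17.7% of all genes. Idh3a, a subunit of the Krebs cycle isocitrate dehydrogenase, fell 1.47-fold from 216 ± 7.15 to 147 ± 9.83 RPKM. Nmnat1, the nuclear NAD synthase, fell 1.48-fold from 15.5 ± 0.729 to 10.5 ± 1.22, and Acss2, which makes acetyl-CoA from acetate, 1.43-fold. Nmnat2, the NAD synthase best known from axons, rose 3.20-fold from 0.902 ± 0.125 to 2.88 ± 0.276 RPKM. Ahcy, which clears the methylation by-product S-adenosylhomocysteine, rose 1.27-fold, and Idh2 rose 1.13-fold but not after rescaling (limma adjusted p = 0.669). The fat cell markers fell in the same libraries, and their part in these values was not tested.

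None of the 7 histone acetyltransferases was higher under all 3 settings. As deposited, 4 of them (57.1%) rose by 1.14- to 1.22-fold, against 41.7% of all genes higher. All 4 lost the call after rescaling, with log2 fold changes of 0.03 to 0.11 left, while 28.6% of all genes were higher. Ep300 and Crebbp, the paired coactivators p300 and CBP, went from 10.0 ± 0.125 to 11.4 ± 0.232 RPKM and from 4.96 ± 0.271 to 6.03 ± 0.467 (limma adjusted p = 0.00726 and 0.0131, and 0.546 and 0.178 after rescaling). Kat2b (PCAF) went from 11.9 ± 0.597 to 14.2 ± 0.606 RPKM (limma adjusted p = 0.00369, and 0.138 after rescaling), and its paralogue Kat2a (GCN5) was at 11.1 ± 0.451 and 11.7 ± 0.375 with overlap (adjusted p = 0.246). The ratio of Ep300 to Crebbp and that of Kat2b to Kat2a overlapped between the groups.

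Kat5 (TIP60), the enzyme of the NuA4 complex, went from 8.84 ± 0.103 to 10.4 ± 0.110 RPKM (limma adjusted p = 0.00262, and 0.194 after rescaling). Of its exonic bases 21.6% overlap Rnaseh2c on the opposite strand, which rose from 10.3 ± 1.19 to 13.9 ± 1.99 RPKM (limma adjusted p = 0.0119). Kat7 (HBO1), which acetylates histone H3 around replication origins, had the same mean in both groups, 14.4 ± 0.260 and 14.4 ± 0.599 RPKM (limma adjusted p = 0.979, 95% interval of the log2 fold change -0.100 to 0.103). Relative to the typical gene it was lower (log2 fold change -0.140, limma adjusted p = 0.0349 after rescaling). Kat8 (MOF), the H4K16 acetyltransferase, was at 5.55, 5.61 and 5.88 RPKM in DMSO and 7.03, 5.35 and 6.36 in 611. Its second 611 library lay under all of DMSO (limma adjusted p = 0.282, and 0.0312 without that library).

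Subunits of acetyltransferase complexes moved in both directions. Of 28 genes, 9 were higher (32.1%) and 6 lower (21.4%), against 41.7% and 17.7% of all genes, with a median log2 fold change of 0.085. The counts were 4 higher and 10 lower after rescaling, and 0 higher and 12 lower after trend removal, with medians of -0.049 and -0.107. Jade1, a subunit that directs the Kat7 complex, fell 1.43-fold from 32.3 ± 0.211 to 22.6 ± 1.00 RPKM, while its paralogue Jade2 rose 1.43-fold from 3.12 ± 0.268 to 4.47 ± 0.380. Ing4 and Brpf3, which also serve Kat7 complexes, fell 1.28-fold and 1.25-fold. Tada2a, an adaptor of Kat2a and Kat2b, rose 1.31-fold, and Brd8 of the Kat5 complex 1.25-fold. The rises of Jade2, Tada2a and Brd8 did not pass after trend removal (limma adjusted p = 0.231, 0.164 and 0.126). Of 8 other acetyltransferases 4 were higher and 1 lower (median 0.140), 3 and 3 after rescaling and 2 and 3 after trend removal. Ncoa3 rose 1.59-fold from 2.35 ± 0.217 to 3.72 ± 0.0963 RPKM, Hat1, which acetylates newly made histone H4, 1.27-fold, and Kat6a 1.26-fold, the last not after trend removal (limma adjusted p = 0.0825). The fourth, Kat6b, named after its values were seen, rose 1.15-fold but passed neither after rescaling nor after trend removal, while the nuclear receptor coactivator Ncoa1 fell 1.18-fold.

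Brd2, a BET bromodomain protein and the most abundant of the 35 genes per length, fell slightly. It was at 57.3, 58.7 and 57.4 RPKM in DMSO and 54.4, 52.7 and 52.7 in 611, every 611 library lower (1.09-fold, log2 fold change -0.12 ± 0.03 SE, limma adjusted p = 0.0155, and -0.265 with adjusted p = 2.6e-04 after rescaling). The call ended without DMSO replicate 2 (adjusted p = 0.0519) or without 611 replicate 2 (adjusted p = 0.0517). Of its exonic bases 8.0% overlap H2-DMa on the opposite strand, which rose from 4.22 ± 0.712 to 6.04 ± 1.07 RPKM (limma adjusted p = 0.0147).

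Most of the other acetyl-lysine readers rose as deposited. Of 11 tested, 10 were higher (90.9%) and 0 lower, against 41.7% and 17.7% of all genes, with a median log2 fold change of 0.335. After rescaling, as after trend removal, 6 were higher (54.5%) and 0 lower, against 28.6% and 26.2% of all genes higher. The log2 fold change of Brd1, named after its values were seen, turned from 0.116 to -0.022 and -0.072. Atad2, a bromodomain protein of replicating chromatin, rose 2.08-fold from 4.93 ± 0.429 to 10.3 ± 0.922 RPKM. Mllt3, a YEATS domain reader, rose 1.54-fold from 3.31 ± 0.176 to 5.11 ± 0.518, and Brd9, of a SWI/SNF complex, 1.35-fold from 7.42 ± 0.256 to 10.0 ± 0.262. The reader that did not pass was Brdt, the BET protein of testis, at 0.242 ± 0.00601 and 0.247 ± 0.0469 RPKM.

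**Figure D3:**
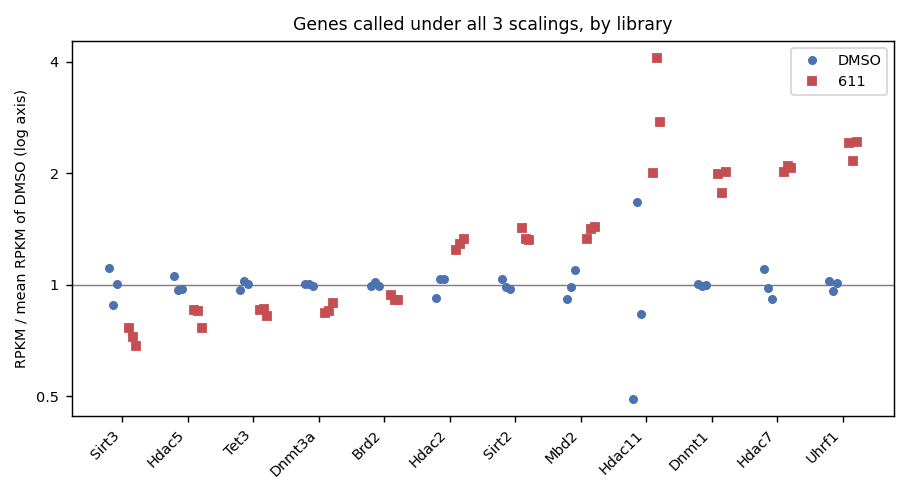
RPKM of each library divided by the mean of the DMSO libraries, on a log axis, for the 12 genes called in the same direction as deposited, after rescaling and after trend removal (circles DMSO, squares 611, n = 3 each). The 2 groups of libraries do not overlap for any of the 12, and Hdac11 has the widest spread within each group. The 12 were picked by tests between these same libraries, so the separation largely follows from the choice.

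**Figure D4:**
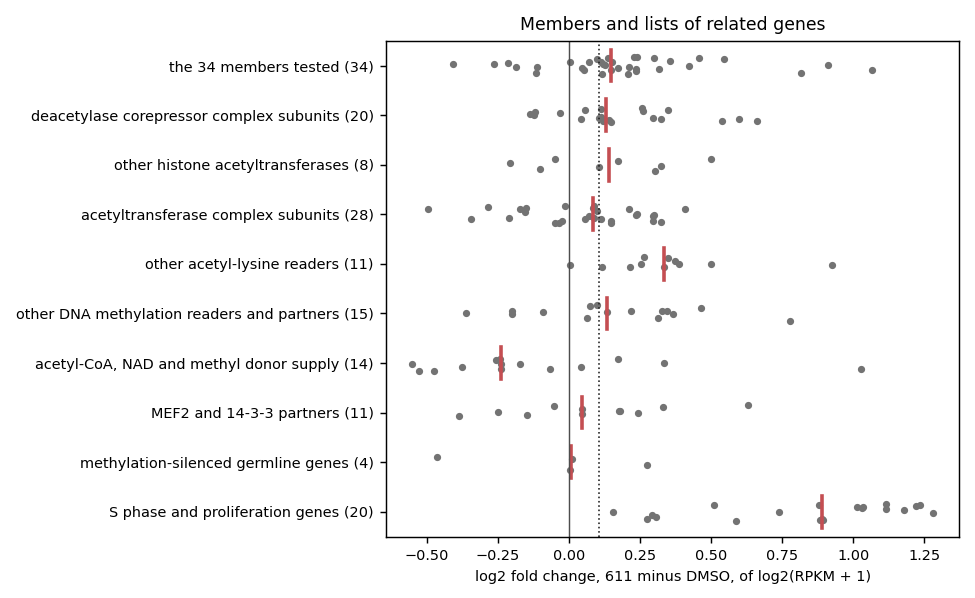
Log2 fold change, as deposited, of each gene tested in the members and in the lists of related genes (points), with the median of each list (vertical bar) and the median of all genes (dotted line, 0.104). The S phase list (median 0.892) and the acetyl-lysine readers (0.335) lie to the right of the members (0.149), and the acetyl-CoA, NAD and methyl donor list (-0.240) to the left.

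Ratios between related genes of 1 library do not depend on how libraries are scaled. For 10 pairs picked after the values were seen, 7 did not overlap between the groups. Each of these had an exact two-sided permutation p of 0.1, the smallest that 3 against 3 libraries can give (0.143 adjusted over 10). No such count was made over other pairs of genes to set beside the 7. Of all single genes tested as deposited, 41.7% were called higher and 17.7% lower. Beyond the pairs above, Sirt2 to Sirt3 went from 2.06 ± 0.209 to 3.84 ± 0.0952, Uhrf1 to Dnmt1 from 0.963 ± 0.0280 to 1.17 ± 0.00644, and Hdac2 to Hdac3 from 1.13 ± 0.0623 to 1.23 ± 0.0195. The pairs with overlap were Hdac1 to Hdac2, Ep300 to Crebbp and Kat2b to Kat2a, with exact p-values of 0.3, 0.3 and 0.2. In Dnmt1 to Dnmt3a, Hdac7 to Hdac5, Tet2 to Tet3 and Sirt2 to Sirt3, the first gene rose and the second fell. Each did so without overlap, so these ratios had to separate. The adjustment over the 10 pairs does not account for how they were picked.

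**Figure D5:**
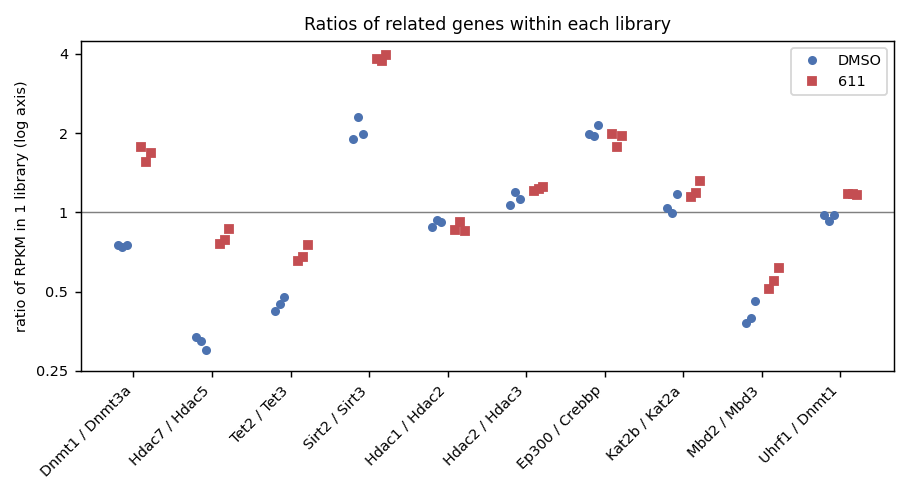
Ratio of the RPKM values of 2 related genes within each library, on a log axis (circles DMSO, squares 611, n = 3 each), for 10 pairs picked after the values were seen. Dnmt1 / Dnmt3a lies between 0.740 and 0.752 in DMSO and between 1.56 and 1.77 in 611, and the pairs Hdac1 / Hdac2, Ep300 / Crebbp and Kat2b / Kat2a overlap.

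The choice of transcript mattered little for these genes. Of the 34 tested, 18 had several transcripts among the 18019 transcripts tested, and in 17 of them the log2 fold changes differed by less than 0.1. Sirt6 was the exception, with 0.000 and 0.117 for its 2 transcripts, neither of which passed. Kat5 was the 1 gene whose transcripts split across the threshold: transcript NM_001199249 stood at a log2 fold change of 0.119 (limma adjusted p = 0.0933) and the other 4 at 0.198 to 0.208. Isoforms share reads, so the transcripts of a gene are not independent measurements.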

How the data were processed

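Per the submitters' processing notes, the tools and build named are TopHat2 2.0.12, TopHat, SAMtools and mm9. For each library the authors deposited the RPKM of 28430 RefSeq transcripts. The program behind the RPKM, its annotation, its use of strand and whether it counted reads or pairs are not stated.

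Symbols came from a RefSeq table (27789 transcripts) and GENCODE M21 metadata (168 more), both GRCm38. The transcript with the highest mean stood for its gene. Genes with at least 0.1 RPKM in 3 libraries were tested with limma 3.58.1 (R 4.3.3, with trend and no term but group) on log2(RPKM + 1), with Benjamini-Hochberg adjustment over all 13795 genes and a threshold of 0.05. The script was tested on simulated data. Library totals came from low RPKM values that were whole multiples of 1 read within 0.03 for 48.2% to 49.5% of low transcripts, against 4.2% to 4.3% at other totals. Read numbers printed come from these totals and lengths, and came out whole in all libraries for 12 of the 35 genes. Dnmt3b, Hdac9 and Hdac11, the genes whose reads are printed, were not among the 12, so their read numbers are rounded estimates.

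Same-numbered libraries of the 2 groups deviated together (correlations of deviations across genes 0.296, 0.298 and 0.177, other pairs -0.233 to -0.071). Deviations were taken from each group's mean, so the negative values follow in part from the positive ones. Because of the positive values, the replicate number was tried as a block.

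The 35 genes and the lists were chosen with earlier results of these data known. Named from each list were up to 3 genes per direction with the largest change, no overlap between groups and at least 1 RPKM. Some of these are not reported here. Of the list entries, Taf1 and Cd68 did not match a symbol. Alternatives were pseudocounts 0.1 and 0.5, other filters, median-of-ratios scaling, no trend, the block, means over transcripts, leaving out each library and, added later, removal of a trend with length, GC and level.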

Additional observations from a re-analysis of the deposited data

How the results depend on the processing

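Of the 20 genes called as deposited, 20 kept their call with pseudocounts of 0.1 or 0.5, without a filter, with limma without trend, with means over transcripts and with the replicate number as a block, and the 18 left by a filter of 1 RPKM kept theirs. The block gave 16 members higher and 5 lower (6160 and 2693 of all genes, 72 and 26 of the list genes), and Hdac8 was the 1 member whose call it changed. After median-of-ratios scaling 14 of 20 kept their call, with 9 members higher, and 3950 of all genes lower. Removing the trend with length, GC and level, chosen after seeing the data, also kept 14, and gave 9 members higher and 9 lower, 3497 of all genes higher and 4216 lower, and 44 list genes higher and 38 lower (69 and 23 as deposited). The signs of log2 fold changes that turned with the scaling were those of Hdac6 (-0.022), Sirt1 (-0.009), Sirt5 (-0.076), Sirt6 (-0.012), Kat2a (-0.070), Kat7 (-0.140), Kat8 (-0.019) and Mbd3 (-0.102). With the trend removed they were those of Hdac8 (-0.026), Hdac4 (-0.177), Hdac6 (-0.183), Hdac10 (-0.058), Sirt1 (-0.097), Sirt5 (-0.134), Sirt6 (-0.079), Ep300 (-0.018), Crebbp (-0.021), Kat2a (-0.087), Kat7 (-0.137), Kat8 (-0.067) and Dnmt3b (-0.041). Leaving out 1 library at a time gave 15 to 17 members higher and 4 to 5 lower, 5161 to 5521 of all genes higher and 2159 to 2319 lower, and 60 to 67 list genes higher and 18 to 22 lower. It turned the sign only for Kat7 (-0.024 to 0.032) and Sirt5 (-0.005 to 0.109), which were not called, and ended the call only of Brd2. Without DMSO replicate 3, Hdac8 passed (limma adjusted p = 0.0147). The cause of these changes was not tested. Hdac9 had an estimated 7 to 19 reads per library and Hdac11 16 to 140. Their values therefore carry the largest counting error among the 35 genes.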
